A study of Mus musculus with 15 samples.

Results

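Ventral skin labelled K14-PTHrP was compared with the wild-type ventral skin labelled K14WT, which the labels name as its comparison. Each group had 3 arrays, and these were 6 of the 15 arrays of the study. The embryos were of strain CD-1 and were taken at embryonic day 15 (E15). K14-PTHrP embryos carry a transgene in which the keratin 14 promoter, active in basal keratinocytes, drives parathyroid hormone-related protein (PTHrP). K14WT skin is given as WT in its labels, with no allele named. The study also held WT ventral skin, WT mammary buds and mammary buds labelled PTHrP-/-, with 3 arrays each. Total RNA was read on Affymetrix MOE430A arrays, where a probe set is a group of short probes read together as the level of a transcript. After genotyping, skin of several embryos was combined for each RNA preparation. Nothing in the labels says that replicate arrays hold different embryos, so p-values here measure only the spread between arrays, which may be technical. Levels below are the deposited log2 values, and a difference of 1 is a 2-fold change in signal.

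PTHrP is a secreted peptide that acts on the receptor encoded by Pth1r, which signals through the G protein subunit encoded by Gnas and cyclic AMP. In the embryo the epithelium of the mammary bud makes PTHrP, and the mesenchyme around the bud carries the receptor and becomes the mammary mesenchyme. In K14-PTHrP mice the ventral epidermis and the dermis below it are known to take on features of nipple skin.

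Pthlh, the gene of PTHrP, was at 4.38, 3.86 and 4.23 on the K14WT arrays and at 3.60, 3.64 and 3.39 on the K14-PTHrP arrays. WT skin had 3.82, 3.36 and 3.46, so the transgenic arrays lay among those of WT skin and below those of K14WT. The K14-PTHrP arrays lay below their own medians, where sizes of differences are not exact. The difference of -0.61 ± 0.24 (SE, n = 3 per group) did not pass the test, with an adjusted p of 0.368 in limma. The labels do not say whether the probe set can read the transgene, so it does not check the label. Pth1r was at 8.35, 7.73 and 7.83 in K14WT and at 7.89, 7.71 and 9.09 in K14-PTHrP skin. These overlapped (0.26 ± 0.30, adjusted p = 0.732), while WT skin lay between 9.09 and 9.36.

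Of 11690 probe sets above background, 60 were higher and 23 lower in K14-PTHrP than in K14WT skin. These 83 had an adjusted p under 0.05 and are 0.71% of those tested (0.513% higher, 0.197% lower), and 1382 had an unadjusted p under 0.05. The arrays of the 2 groups did not overlap at any of the 83, against 11.3% of all probe sets tested. Of the 83, 29 rose and 11 fell at least 2-fold. Gene names were held for 42 of them, which stand for 26 genes that rose and 13 that fell. In all, 1892 genes had a name and a probe set tested, and 39 of these were called. Counts for gene lists below cover only such members, not the whole list. The other 32 rises and 9 falls had no name here. The unnamed probe sets with the largest rises were 1418507_s_at (2.70) and 1423933_a_at (1.96), and those with the largest falls were 1421818_at (-1.46) and 1427371_at (-1.21). At 8 of the rises all 3 K14WT values were under the medians of their arrays. Fxyd6 and Sim2 are among these, and the sizes of such rises are not exact.

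**Figure D1:**
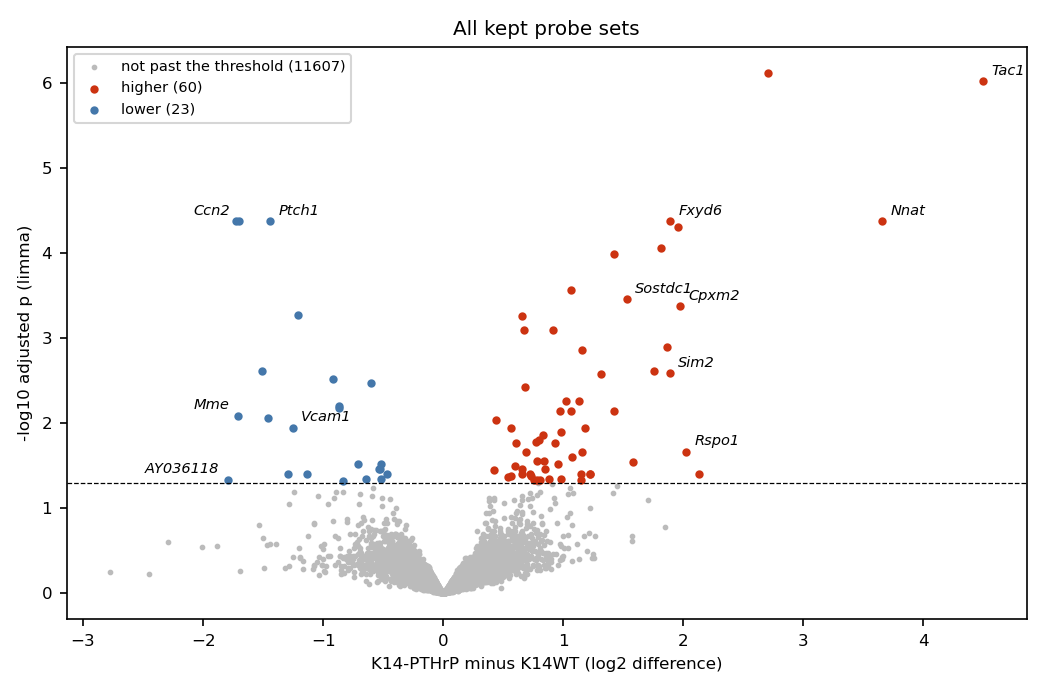
Each point is 1 of 11690 probe sets, with the log2 difference between K14-PTHrP and K14WT skin on the x axis and -log10 of the limma adjusted p on the y axis, and the dashed line at an adjusted p of 0.05. The 60 rises are red and the 23 falls blue, and Tac1 at 4.50 and Nnat at 3.66 lie farthest to the right.

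Array medians ran from 3.86 to 4.05. Arrays correlated at r = 0.964 to 0.988 within the K14 groups and at 0.961 to 0.991 between them, across probe sets. The median SD was 0.178 in K14WT and 0.202 in K14-PTHrP skin, against 0.115 to 0.128 in the other groups. The fit takes the spread from all 15 arrays, so the SE can be too small here. A fit of the 2 K14 groups alone, with 4 residual degrees of freedom against 10, called 7 probe sets (0.0599%). The named ones among them were Tac1, Nnat, Fxyd6, Sim2 and Glo1. The control probe set for the 5′ end of 18S rRNA read 10.2 to 10.4 on the K14WT arrays and 12.5, 7.11 and 8.74 on the K14-PTHrP arrays. The log2 difference between the 3′ and 5′ Gapdh controls, a sign of RNA integrity, was 0.46 to 0.78 in K14WT skin and 0.30, 0.44 and 1.19 in K14-PTHrP skin. The part of either in the results was not tested.

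Genes on the list of neuropeptides and peptidases moved in both directions. Of 5 named and kept on that list, 2 rose (Tac1, Cpxm2) and 2 fell (Penk, Mme). Tac1, which encodes the precursor of substance P and neurokinin A, read 4.69, 4.98 and 4.63 in K14WT and 9.12, 9.95 and 8.74 in K14-PTHrP skin. WT skin had 4.57, 4.41 and 4.48, so both control groups sat close together and far below the transgenic arrays. The rise was 22.6-fold (4.50 ± 0.25 SE, adjusted p = 9.43e-07), the largest difference of any probe set tested. Penk, which encodes the precursor of the enkephalins, fell from 9.17, 9.46 and 9.08 to 8.19, 8.31 and 8.61 (-0.87 ± 0.13, adjusted p = 0.00664). The WT skin arrays read 9.07 to 9.15, and all 6 control arrays lay above the transgenic ones. Mme, the membrane peptidase neprilysin that cleaves substance P and enkephalins, fell from 6.61, 5.88 and 6.74 to 4.81, 4.41 and 4.87. This was 3.27-fold (-1.71 ± 0.27, adjusted p = 0.00812), and WT skin, at 5.98 to 6.64, also lay above every transgenic array. Cpxm2, a secreted member of the carboxypeptidase family, rose from 5.69, 4.75 and 5.40 to 7.13, 7.25 and 7.37 (1.97 ± 0.22, adjusted p = 0.000422). Its WT skin arrays, at 6.89, 6.89 and 7.41, overlapped the transgenic ones, and the difference from WT skin was 0.19 (adjusted p = 0.780). Each of these 4 genes kept its call when any 1 of the 6 arrays was left out. In bulk tissue, fewer cells of a type and less RNA per cell cannot be told apart.

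**Figure D2:**
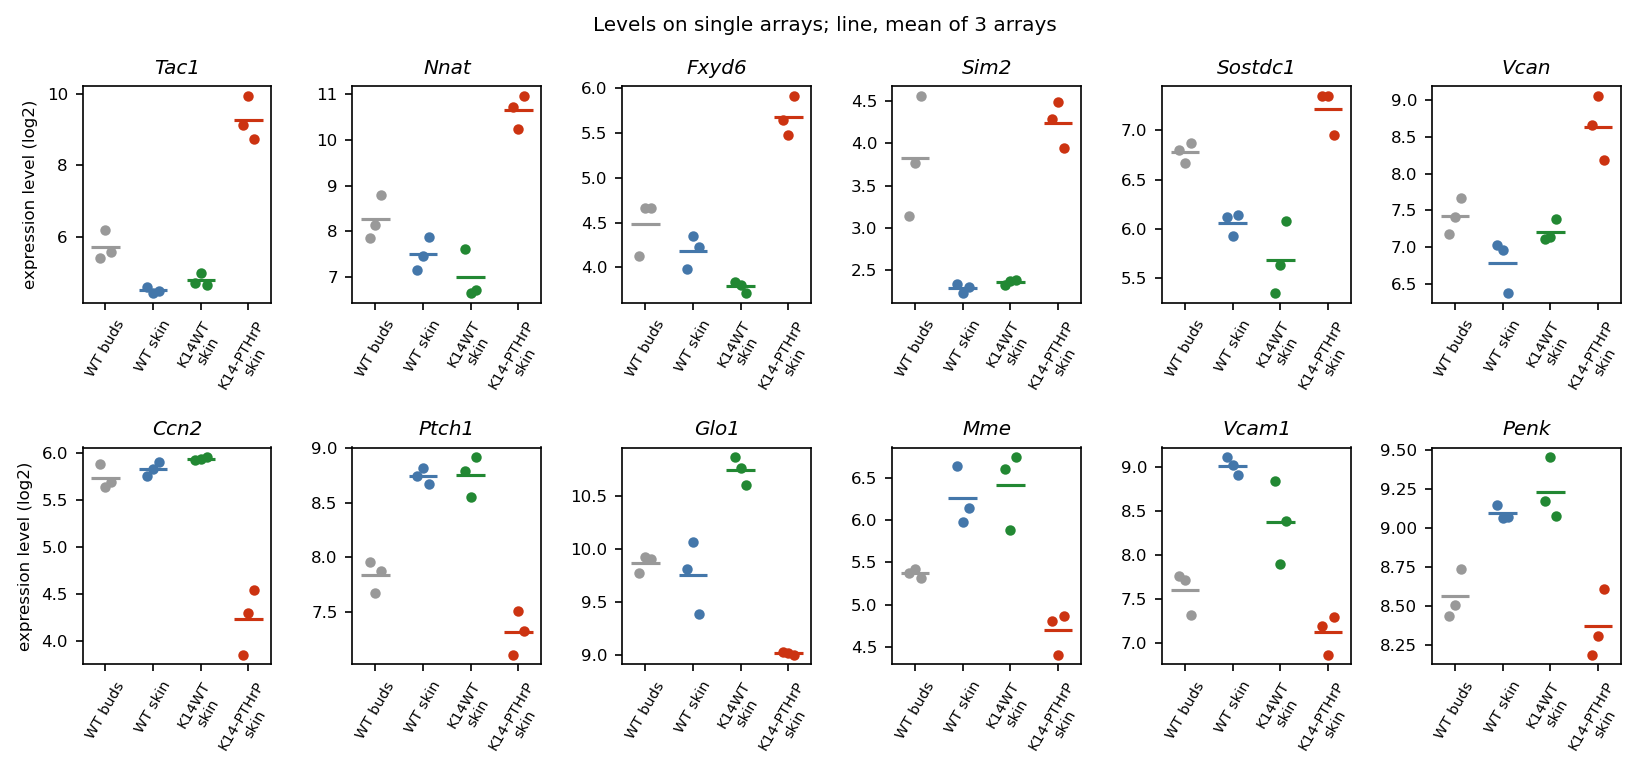
Each panel gives the log2 level (y axis) of 1 gene on single arrays of WT buds, WT skin, K14WT skin and K14-PTHrP skin, with a line at the mean of 3 arrays. The upper row holds genes that rose and the lower row genes that fell, each at its called probe set with the smallest adjusted p, and in all 12 panels the K14-PTHrP arrays lie beyond all 6 arrays of control skin.

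The bases upstream of the 2 genes with the largest rises are shown because a cyclic AMP-linked receptor binds the transgene's product, and the promoters can be read for the cyclic AMP response element. Both stretches are the 250 bases before the transcription start in RefSeq, build GRCm38.p6, on the plus strand, at chr6:7554811-7555060 for Tac1 and at chr2:157559828-157560077 for Nnat. Capitals mark TGACG, the core of the element, or its reverse complement CGTCA, searched on both strands.
Tac1: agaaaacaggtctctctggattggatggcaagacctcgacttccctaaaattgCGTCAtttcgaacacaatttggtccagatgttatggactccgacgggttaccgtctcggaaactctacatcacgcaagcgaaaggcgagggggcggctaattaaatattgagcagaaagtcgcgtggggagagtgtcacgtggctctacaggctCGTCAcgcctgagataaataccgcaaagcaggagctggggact
Nnat: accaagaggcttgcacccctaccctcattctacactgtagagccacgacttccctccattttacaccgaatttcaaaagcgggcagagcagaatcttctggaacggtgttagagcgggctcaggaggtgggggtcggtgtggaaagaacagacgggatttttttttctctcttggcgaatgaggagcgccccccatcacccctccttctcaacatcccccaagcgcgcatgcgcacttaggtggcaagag
Tac1 held the core at 2 places, which begin 197 and 43 bases before the start, and Nnat at none. The same letters stood in 19.8% of the 250-base stretches of all 27025 genes in the table, and the full element TGACGTCA in 1.77%. Among the genes that rose, 17 of 26 had a stretch in the table, and the core stood in 2 of them (Tac1 and Ccnd3), which is 11.8%. Among those that fell, 6 of 13 had one, and the core stood in 1 (Pigf), which is 16.7%. The full element was in none of either. The core takes in the full element, and a match is a description of letters alone.

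Nnat, Fxyd6 and Sln encode small membrane proteins, and the first of these had the next largest rise among named genes. Nnat, an imprinted gene for a small protein of the endoplasmic reticulum membrane, rose from 7.62, 6.65 and 6.71 to 10.73, 10.25 and 10.97. WT skin was at 7.15 to 7.88, so the transgenic arrays stood well above all 6 controls. The rise was 12.6-fold (3.66 ± 0.30, adjusted p = 4.16e-05). None of the other 6 imprinted genes named and kept passed, and the median over the 7 was 0.12, against -0.01 over all probe sets. Fxyd6, a regulator of the sodium-potassium pump, rose from 3.84, 3.81 and 3.71 to 5.65, 5.48 and 5.91 (1.89 ± 0.16, adjusted p = 4.16e-05). WT skin, at 3.98 to 4.35, lay between the 2 K14 groups. Sln encodes sarcolipin, which inhibits the calcium pump of muscle, and fell from 9.47, 9.25 and 9.04 to 8.62, 8.14 and 8.49 (-0.84 ± 0.17, adjusted p = 0.0475). WT skin had 7.99, 8.36 and 7.68, so the transgenic arrays overlapped it and the K14WT arrays stood above both. The fall of Sln did not pass without any 1 of the 6 arrays (adjusted p = 0.0554 to 0.135).

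Of 18 genes listed for the mammary and nipple mesenchyme, 5 were named and kept, and 2 of these rose, Vcan and Mmp2. Names were held only for probe sets on the authors' lists, which set buds labelled PTHrP-/- or WT skin against WT buds. The lists from the 2 bud groups were the longer, with 639 and 1484 probe sets against 338 and 215. The 5 genes are therefore a selection by such differences and not a sample of all probe sets. All 5 differences were positive at the brightest probe set, also after quantile normalization or centring of the arrays. Of all probe sets tested 48.5% had a positive difference. The median of the 5 was 0.78, against -0.01 over all probe sets. The mean level of the 5 was 8.09 to 8.66 on the K14-PTHrP arrays, 7.51 to 7.75 on K14WT and 7.83 to 7.97 on WT skin arrays. Vcan encodes versican, a large proteoglycan of condensing mesenchyme, and rose from 7.11, 7.14 and 7.38 to 8.66, 9.06 and 8.18 (1.43 ± 0.22, adjusted p = 0.00724). Its WT skin arrays, at 6.37 to 7.03, lay lower still. Mmp2 encodes gelatinase A, which degrades basement membrane collagen, and rose from 7.31, 6.86 and 6.85 to 8.34, 8.03 and 8.04 at 1416136_at (1.13 ± 0.17, adjusted p = 0.00553). WT skin was at 7.86, 8.20 and 7.61 and overlapped the transgenic arrays. At its brighter probe set, 1439364_a_at, Mmp2 rose by 0.78 ± 0.15 (adjusted p = 0.0281), a call that was lost without K14WT replicate 2 or 3 or K14-PTHrP replicate 1 or 3 (adjusted p = 0.0796 to 0.135). Tbx3, a transcription factor needed for mammary placodes, was at 4.13, 4.18 and 4.21 in K14WT and at 5.34, 4.34 and 5.81 in K14-PTHrP skin (1.99-fold, adjusted p = 0.214). No array of control skin reached the transgenic ones, but the difference did not pass.

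Sim2, a basic helix-loop-helix transcription factor expressed in mammary epithelium, was near the bottom of the scale in both controls. It read 2.32, 2.37 and 2.38 in K14WT, 2.22 to 2.32 in WT skin and 4.30, 4.49 and 3.95 in K14-PTHrP skin. The rise was 1.89 ± 0.25 (adjusted p = 0.00260). WT buds had 3.14, 3.76 and 4.57, so the transgenic skin lay in the range of the buds. Sostdc1, a secreted antagonist of BMPs that also modulates Wnt signalling, rose at both probe sets. At 1460250_at it went from 5.35, 5.63 and 6.08 to 7.34, 7.35 and 6.95 (1.53 ± 0.16, adjusted p = 0.000344), and at the brighter 1449340_at by 0.83 ± 0.14 (adjusted p = 0.0136). All 6 control skin arrays lay below the transgenic ones at each. The second of these calls was lost without K14WT replicate 2 or K14-PTHrP replicate 1 (adjusted p = 0.0654 and 0.0570). Of 22 genes listed for bud epithelium 10 were named and kept. Sim2 and Sostdc1 were the 2 of these that passed, and the median was -0.07. Elf5, a transcription factor of the mammary epithelium, was at 5.76, 6.75 and 6.72 in K14WT and 5.07, 5.81 and 3.75 in K14-PTHrP skin, which overlapped (-1.53 ± 0.41, adjusted p = 0.160).

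In the Wnt and BMP pathways Rspo1, Sostdc1 and Id1 rose. Rspo1, a secreted agonist of Wnt signalling, rose from a mean of 4.39 ± 0.36 (SD, n = 3) to 6.83, 5.25 and 7.17 (2.03 ± 0.36, adjusted p = 0.0216). The K14-PTHrP arrays were spread over almost 2 log2 units, and the lowest lay just above the highest WT skin array, at 5.17. The call was lost without K14WT replicate 2 or 3 or K14-PTHrP replicate 1 or 3 (adjusted p = 0.0563 to 0.105). Rspo1 and Sostdc1 were the 2 that passed of 7 Wnt genes named and kept (31 listed), with a median of 0.14. Wif1, a secreted Wnt inhibitor, was at 6.91, 6.11 and 6.55 in K14WT and 5.58, 5.75 and 5.74 in K14-PTHrP skin without overlap, and did not pass (-0.83 ± 0.18, adjusted p = 0.0643). Id1, a helix-loop-helix protein induced by BMPs, rose from 9.03, 9.07 and 8.73 to 9.59, 9.76 and 9.55 (0.69 ± 0.12, adjusted p = 0.0216). WT skin, at 8.77 ± 0.21 (SD, n = 3), lay with K14WT. This call was lost without K14WT replicate 3 or K14-PTHrP replicate 1 (adjusted p = 0.115 and 0.0526). With Sostdc1, 2 of 6 BMP genes named and kept (26 listed) passed. All 6 differences were positive, also after quantile normalization or centring, and the median was 0.50. Of all probe sets tested 48.5% had a positive difference. The mean level of the 6 was 8.29 to 8.91 on K14-PTHrP, 8.12 to 8.21 on K14WT and 7.76 to 7.86 on WT skin arrays. K14WT thus stood above WT skin.

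The hedgehog receptor gene Ptch1, which is also a transcriptional target of that pathway, fell from 8.79, 8.55 and 8.92 to 7.10, 7.51 and 7.32. WT skin was at 8.67 to 8.81, so the controls formed one narrow band above the transgenic arrays. The fall was 2.72-fold (-1.44 ± 0.12, adjusted p = 4.16e-05), and no other hedgehog gene had a name here. Ccn2, a matricellular factor also known as connective tissue growth factor, fell from 5.92, 5.94 and 5.95 to 3.86, 4.30 and 4.55. Its WT skin arrays, at 5.75 to 5.91, again sat with K14WT, and the fall was 3.26-fold (-1.70 ± 0.14, adjusted p = 4.16e-05). Tgfbi, a matrix protein induced by TGF-beta, rose from 5.26, 5.25 and 5.28 to 6.49, 6.10 and 6.39 at 1448123_s_at (1.07 ± 0.16, adjusted p = 0.00724). Its brighter probe set, 1456250_x_at, had the same difference with a larger error (1.07 ± 0.28, adjusted p = 0.157). Of 5 genes on the TGF-beta and CCN list, Tgfbi rose, Ccn2 fell and the other 3 did not pass. Ccn4, another CCN factor, differed by -0.80 ± 0.21 at 1448593_at without overlap, but with an adjusted p of 0.147. At its brighter probe set, 1448594_at, the K14 groups overlapped (-0.66 ± 0.26, adjusted p = 0.368).

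Matrix and adhesion genes moved in both directions. On the extracellular matrix list 2 of 22 genes rose (Vcan, Col17a1), 1 fell (Egfl6), and the median was -0.09. Col17a1, a transmembrane collagen that anchors basal keratinocytes, rose from 7.42 to 7.46 over the K14WT arrays to a mean of 8.01 ± 0.09 (SD, n = 3; 0.57 ± 0.09, adjusted p = 0.0112). WT skin, at 7.55 to 7.66, lay between the 2 K14 groups. Egfl6, a matrix protein of the epidermal basement membrane, fell from 8.01, 7.09 and 7.95 to 6.78, 6.15 and 6.25 (-1.29 ± 0.26, adjusted p = 0.0401). Its call was lost without K14WT replicate 1 or 3 or K14-PTHrP replicate 2 or 3 (adjusted p = 0.0693 to 0.191). Vcam1, a cell surface ligand of integrins, fell from 8.84, 7.89 and 8.38 to 7.19, 6.86 and 7.30 at 1448162_at (-1.25 ± 0.20, adjusted p = 0.0112). WT skin, at 8.91 to 9.11, lay above both K14 groups, and the difference from it was -1.89. The call just missed the threshold without K14WT replicate 3 (adjusted p = 0.0506), and the dimmer probe set 1415989_at did not pass (-0.64 ± 0.29, adjusted p = 0.410). Thy1, a surface glycoprotein of fibroblasts, rose from 7.81, 8.38 and 7.75 to 8.90, 8.86 and 9.13 (0.98 ± 0.20, adjusted p = 0.0450). WT skin, at 7.44 to 8.26, lay with K14WT, and the call was lost without K14WT replicate 1 or 3 or K14-PTHrP replicate 1 or 3 (adjusted p = 0.0733 to 0.215). Palld, an actin-bundling scaffold, rose from 5.66, 6.27 and 5.72 to 6.53, 7.07 and 7.26 (1.07 ± 0.20, adjusted p = 0.0253). All 6 control skin arrays lay below it, and its call was lost without K14WT replicate 3 or K14-PTHrP replicate 3 (adjusted p = 0.133 and 0.0777).

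Among metalloproteinases and their inhibitors 2 of 7 genes rose, and the median was 0.21. Besides Mmp2 this was Timp2, an inhibitor that also takes part in the activation of the Mmp2 proenzyme. At 1433662_s_at Timp2 rose from 6.32, 6.54 and 6.10 to 7.46, 6.91 and 8.04 (1.15 ± 0.24, adjusted p = 0.0465). WT skin was at 7.85, 8.25 and 7.61, above most of the transgenic values. Its other probe sets differed by 0.72 and 0.21 and did not pass (adjusted p = 0.0936 and 0.537). The Timp2 call held in 1 of the 6 fits that left out an array, that without K14-PTHrP replicate 2 (adjusted p = 0.00553, and 0.0626 to 0.218 in the other 5). Serpine2, an inhibitor of thrombin and plasminogen activators, rose by 1.22 ± 0.24 (adjusted p = 0.0392). It read 7.59, 6.74 and 7.11 in K14WT, 8.63, 7.80 and 8.68 in K14-PTHrP and 7.86 to 8.23 in WT skin, so WT skin overlapped the transgenic arrays. Ctsh, a lysosomal cysteine protease, fell from 8.15, 8.23 and 8.27 to 7.73, 7.72 and 7.66 (-0.51 ± 0.11, adjusted p = 0.0450). WT skin, at 7.78 to 8.15, lay above the transgenic arrays by little. The call of Serpine2 was lost without K14WT replicate 2 or 3 or K14-PTHrP replicate 1 or 3 (adjusted p = 0.118 to 0.149), and that of Ctsh in every fit except that without K14WT replicate 1 (adjusted p = 0.0563 to 0.191).

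Glo1, the glyoxalase that detoxifies methylglyoxal, a by-product of glycolysis, fell at both probe sets. At 1424109_a_at it went from 10.86, 10.77 and 10.61 to a mean of 9.02 ± 0.01 (SD, n = 3), which was 3.32-fold (-1.73 ± 0.15, adjusted p = 4.16e-05). WT skin, at 9.39 to 10.07, lay between the 2 K14 groups, and the difference from it was -0.74. At 1424108_at the fall was 1.14 on the log2 scale, with an SE of 0.22 (adjusted p = 0.0392), and that call was lost without any K14WT replicate or without K14-PTHrP replicate 1 (adjusted p = 0.0637 to 0.118). None of the other 8 genes of hypoxia and glycolysis passed. Lpl, which encodes lipoprotein lipase, rose by 0.57 ± 0.11 (adjusted p = 0.0416), from 7.43 to 7.66 in K14WT to 7.98 to 8.37 in transgenic skin. WT skin, at 7.43 to 7.70, lay with K14WT, and Lpl was the only one of 4 adipocyte genes that passed. The call of Lpl was lost without K14WT replicate 2 or 3 or K14-PTHrP replicate 1 or 3 (adjusted p = 0.0820 to 0.157).

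Hmga2, an architectural chromatin protein of embryonic cells, rose from 6.15, 5.39 and 5.41 to 7.54, 6.43 and 7.74 (1.58 ± 0.30, adjusted p = 0.0290). The lowest transgenic array lay within the WT skin range of 6.26 to 6.64. Its other probe sets, 1450780_s_at and 1450781_at, differed by 1.42 and 1.57 and did not pass (adjusted p = 0.0657 and 0.214). The other 12 genes of the cell cycle and replication list did not pass, with a list median of 0.05. Igfbp4, which binds insulin-like growth factors, rose by 0.65 ± 0.13 at 1421992_a_at (adjusted p = 0.0392), while its brighter probe set 1423756_s_at did not pass (0.78 ± 0.17, adjusted p = 0.0699). It was the only one of 7 genes of the FGF, EGF, IGF and PDGF list past the test, and Spry2, an inhibitor of receptor tyrosine kinase signalling, was at -0.70 ± 0.15 (adjusted p = 0.0685). Pcbp4, an RNA-binding protein, read 5.37, 4.13 and 3.83 in K14WT and 6.26, 5.93 and 7.54 in K14-PTHrP skin (2.13 ± 0.43, adjusted p = 0.0401). WT skin, at 6.18 to 6.93, overlapped the transgenic arrays, and the difference from it was -0.05. The homeobox gene Meis2 rose by 1.16 ± 0.21 (adjusted p = 0.0220), from 4.99 to 5.75 in K14WT to 6.02 to 6.87 in K14-PTHrP skin, and WT skin was at 5.89 to 6.13. The calls of Hmga2, Igfbp4, Pcbp4 and Meis2 were each lost without K14WT replicate 2 or 3 or K14-PTHrP replicate 1 or 3 (adjusted p = 0.0568 to 0.191). The Igfbp4 call was also lost without K14-PTHrP replicate 2 (adjusted p = 0.0524).

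The remaining named calls were smaller or stood apart in K14WT. Tst, a mitochondrial sulfurtransferase, rose by 0.80 and Bzw2, a regulator of translation, by 0.79 (adjusted p = 0.0465 and 0.0158). Ccnd3, which encodes cyclin D3, rose by 0.72 and the splicing factor gene Sf3b2 by 0.42 (adjusted p = 0.0392 and 0.0351), and both were named after their values were seen. Pigf, an enzyme of glycolipid anchor synthesis, fell by 0.53 (adjusted p = 0.0346). At each of these 5 genes the transgenic arrays overlapped or fell below those of WT skin. 4631408O11Rik fell from 9.15, 9.32 and 9.19 to 7.99, 7.71 and 7.44 (-1.51 ± 0.20, adjusted p = 0.00244), and WT skin, at 8.04 to 8.95, lay above the transgenic arrays. AY036118 read 11.21, 12.83 and 12.49 in K14WT, 10.86, 10.21 and 10.07 in K14-PTHrP and 9.94 to 10.15 in WT skin. Its fall (-1.80 ± 0.37, adjusted p = 0.0460) was from K14WT arrays that stood above every other skin array. The call of AY036118 was lost in 4 of the 6 fits that left out an array, those without K14WT replicate 2 or 3 or K14-PTHrP replicate 2 or 3 (adjusted p = 0.0698 to 0.215). Those of Ccnd3 and Pigf were lost without K14WT replicate 2 or 3 or K14-PTHrP replicate 1 or 3 (adjusted p = 0.0771 to 0.159), and that of Tst in every fit except that without K14-PTHrP replicate 1 (adjusted p = 0.0610 to 0.134). The Bzw2 call was lost without K14WT replicate 3 or K14-PTHrP replicate 1, and the Sf3b2 call without K14WT replicate 2 or K14-PTHrP replicate 1 or 3 (adjusted p = 0.0526 to 0.126).

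**Figure D3:**
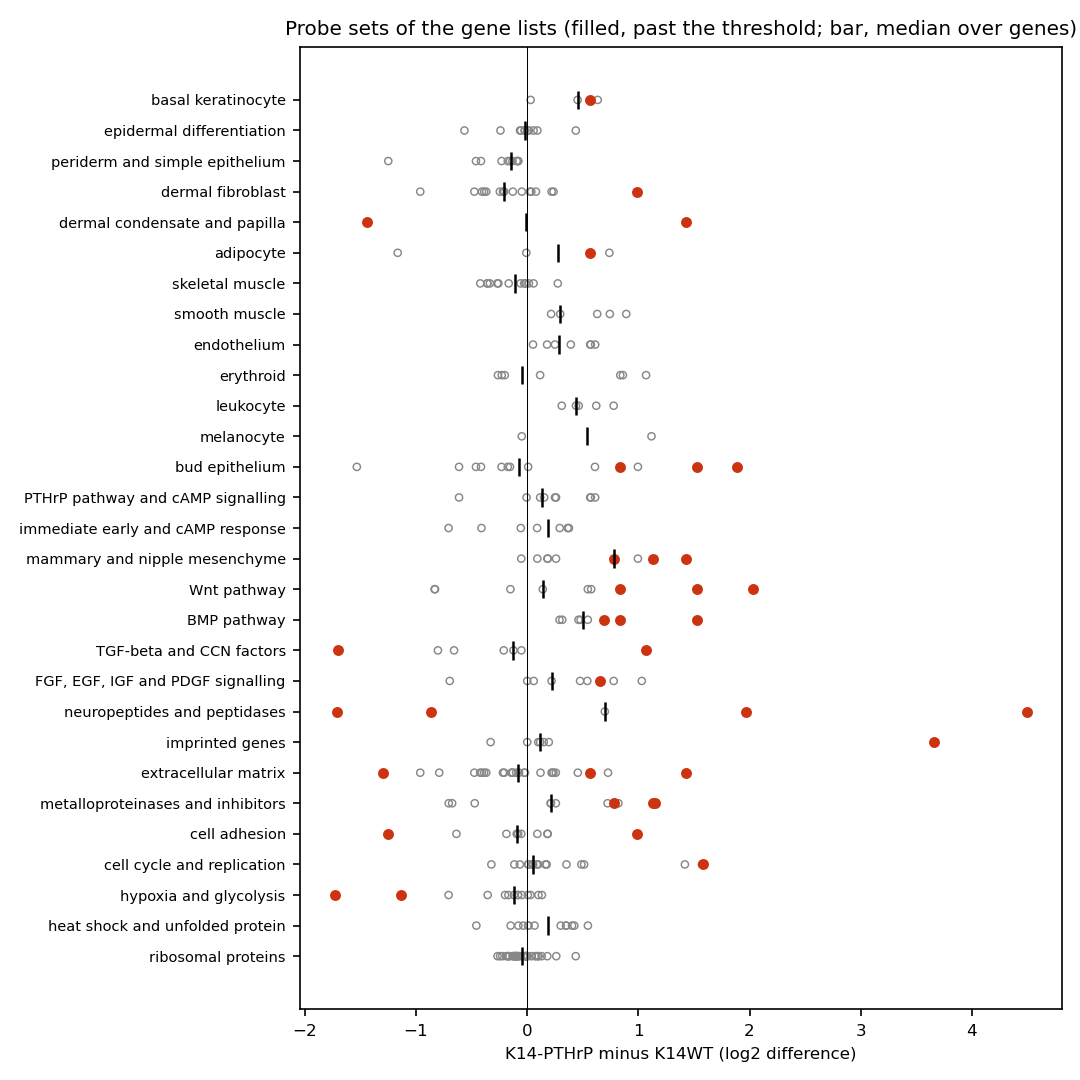
Each row is one of the gene lists, and each circle is the log2 difference between K14-PTHrP and K14WT skin at a probe set of a member, filled where it passed the test. Black bars give the median over genes, which is 0.78 for mammary and nipple mesenchyme, 0.50 for BMP genes and -0.11 for skeletal muscle.

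Markers of the cell types that the dissection could hold gave few calls. Krt14, the basal keratin whose promoter drives the transgene, was at 10.58, 11.06 and 10.69 in K14WT and 10.93, 11.25 and 11.51 in K14-PTHrP skin at 1423935_x_at. The groups overlapped, and the difference was 0.45 ± 0.16 (adjusted p = 0.299). At its other probe set, 1460347_at, they did not overlap, at 10.24 to 10.74 and 10.74 to 11.33, and the difference did not pass either (0.63 ± 0.16, adjusted p = 0.143). Of 3 basal keratinocyte genes only Col17a1 passed, and of 11 dermal fibroblast genes only Thy1. Fibroblast markers had a mean level of 10.7 to 10.8 on the K14WT and 10.5 to 10.7 on the K14-PTHrP arrays, and the proteoglycan gene Lum was at -0.96 ± 0.23 (adjusted p = 0.0885). None of 10 genes of epidermal differentiation passed, and the cornified envelope gene Lor was at -0.56 ± 0.29 (adjusted p = 0.471). All 8 genes of periderm and simple epithelium had negative differences, under either rescaling too, none past the test, with a median of -0.14. Of all 11690 probe sets 6025 had a negative difference. None of 14 skeletal muscle genes passed. Their mean level was 9.43 to 9.94 on K14WT, 8.93 to 9.86 on K14-PTHrP and 8.82 to 9.41 on WT skin arrays. None of the erythroid (4), endothelial (4), leukocyte (3), smooth muscle (3) or melanocyte (2) genes passed, nor the cartilage gene Col9a1. The leukocyte markers, which include the complement gene C1qb, had a mean level of 7.02 to 7.24 on K14WT and 7.42 to 7.68 on K14-PTHrP arrays. WT skin was at 7.39 to 7.69. No nerve or Schwann cell marker was named here, so such cells could not be looked for. The part of any cell type in the calls was not tested.

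Genes of PTHrP signalling and of the cyclic AMP and immediate early response gave no call. Of 6 genes of the first list and 6 of the second none passed, and the medians were 0.13 and 0.19. None of the 10 heat shock and unfolded protein genes or 26 ribosomal protein genes passed either, nor the 1 Notch gene named. Over the 14 lists without a call, 12 of 97 genes had an unadjusted p under 0.05 in limma.

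WT skin, a separate set of wild-type arrays, allowed each difference to be set beside a second control. At 58 of the 83 probe sets, 40 higher and 18 lower, the 3 K14-PTHrP arrays lay beyond all 6 arrays of control skin, which held for 2.64% of all probe sets tested. The 83 already lay apart from K14WT, so this count is not independent of their choice. Of the 1326 probe sets at which the K14 groups did not overlap, 309 lay beyond all 6. Against WT skin alone 49 of the 83 passed in the same direction, where that contrast called 3.21% of all probe sets. It uses the same K14-PTHrP arrays and is not independent of the choice of the 83. Against the mean of both controls 67 of the 83 passed, where that contrast called 2.13% of all probe sets. That contrast reuses the K14-PTHrP and K14WT arrays by which the 83 were chosen, so a large overlap was built in. Of the 26 named genes that rose, 14 lay beyond all control skin arrays at a called probe set and 12 did not. Those 12 were Pcbp4, Cpxm2, Hmga2, Serpine2, Meis2, Timp2, Mmp2, Tst, Bzw2, Ccnd3, Igfbp4 and Sf3b2. Of the 13 that fell, 10 did and 3 did not, the latter being AY036118, Sln and Pigf. At 23 of the 60 rises every K14WT array lay below every WT skin array, and at 11 of the 23 falls every K14WT array lay above. Over all probe sets tested K14WT lay below WT skin in this way at 21.4% and above it at 9.61%. Whether K14WT and WT skin embryos differ in litter or dissection is not given in the labels.

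**Figure D4:**
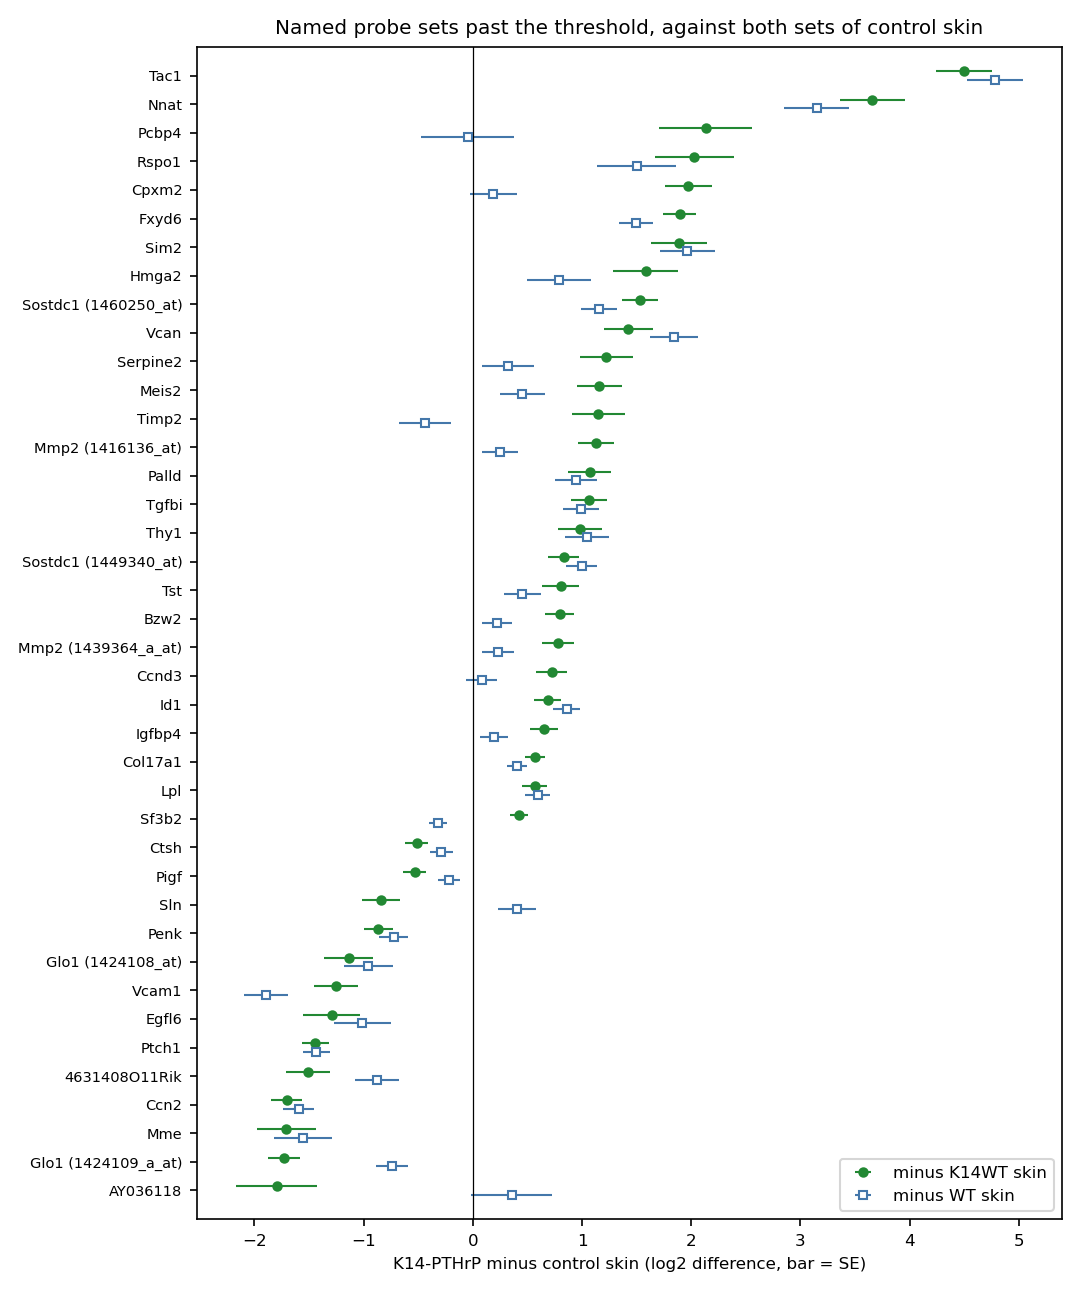
Log2 differences (x axis, bars SE) between K14-PTHrP skin and K14WT skin (filled green circles) or WT skin (open blue squares), for 40 named probe sets that passed against K14WT. Tac1 and Ptch1 gave nearly the same difference from either control, while Pcbp4, at 2.13 from K14WT, was at -0.05 from WT skin.

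The bud arrays and WT skin share no array with the K14 groups, and their differences were set beside the calls. The fit took the spread from all 15 arrays, so these arrays also had a part in the choice of the 83. The counts and correlations over the calls are not independent of that choice. Of the 60 rises, 16 had all WT bud arrays above all WT skin arrays and 5 had them all below. Of the 23 falls, 11 had the bud arrays all below and 3 all above. Buds and skin did not overlap at 18.8% of all probe sets, both directions together, and the share by direction is not given here. By means alone, buds lay above skin at 32 of the 60 rises and at 5511 of all 11690 probe sets, and below skin at 14 of the 23 falls. Tac1, Nnat, Sim2, Rspo1 and Hmga2 rose in transgenic skin and had higher means in WT buds than in WT skin, by 1.23, 0.76, 1.54, 0.96 and 0.74. Ptch1, Mme, Vcam1 and Penk fell and had lower means in buds, with differences of -0.91, -0.88, -1.41 and -0.53. Cpxm2 rose in transgenic skin but had a lower mean in buds (-1.93), and the bud and skin difference of Ccn2 was -0.09. Beside buds labelled PTHrP-/-, Tac1, Nnat and Sim2 differed from WT buds by -1.07, -0.88 and -1.45, and Ccn2, Mme, Vcam1 and Ptch1 by 1.05, 0.65, 0.66 and 0.40. Glo1 and Sln, which fell in transgenic skin, were also lower in those buds (-0.47 and -0.41), and the difference of Penk was -0.07. These are differences of means with no test given here. The authors' lists that gave these genes their names were drawn from the same bud and WT skin arrays. Apart from Ccn2 for buds and skin, and Penk for the 2 bud groups, each gene was on a list of that comparison. The signs of those differences therefore followed from the listing. Over all probe sets the transgenic difference and that between buds and skin had a Pearson r of 0.006, and over the 83 calls r was 0.38. With the difference between buds labelled PTHrP-/- and WT buds, r was -0.16 and -0.55. By rank (Spearman) the correlations were weaker over the calls. They were -0.065 over all probe sets and 0.29 over the calls for buds and skin, and -0.20 and -0.45 for the 2 bud groups. All of these values come from 1 normalization of the 15 arrays.

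**Figure D5:**
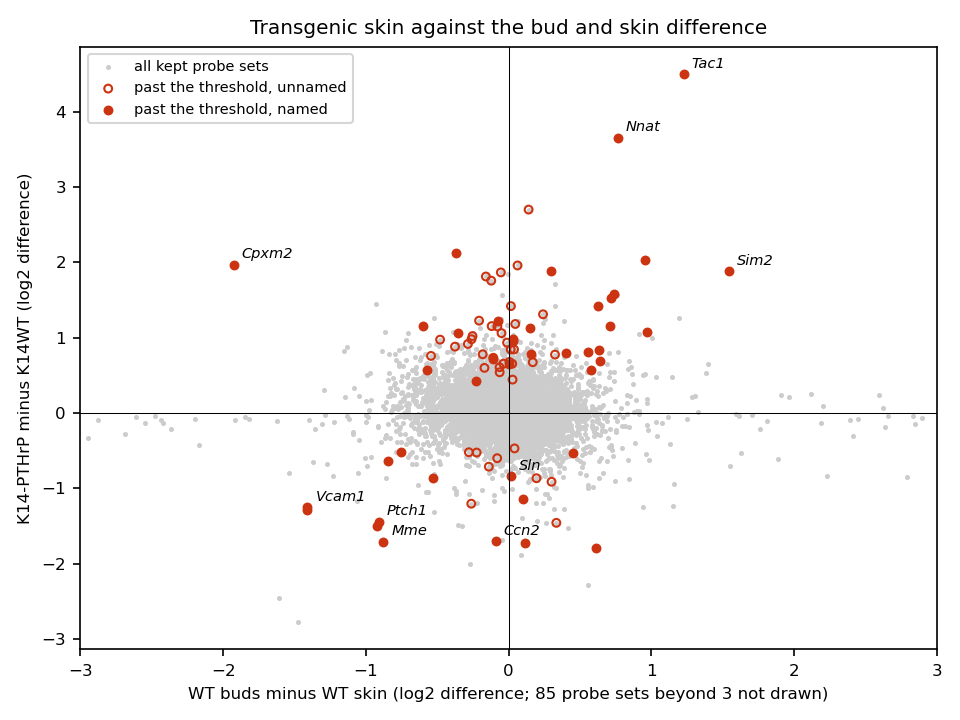
The log2 difference between WT buds and WT skin (x axis) against that between K14-PTHrP and K14WT skin (y axis), with all probe sets in grey, calls in red, and 85 probe sets beyond 3 log2 units on the x axis not drawn. Tac1, Nnat and Sim2 lie at the upper right, Ptch1, Mme and Vcam1 at the lower left and Cpxm2 at the upper left.

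In the authors' deposited tables, 199 probe sets tested here were listed as higher in WT buds than in WT skin. Of these 13 were higher and 2 lower in transgenic skin, which is 7.54%, against 0.71% of all probe sets tested. Their median difference was -0.03, close to the -0.01 of all probe sets. Of the 318 listed as higher in WT skin, 3 rose and 8 fell (3.46%), with a median of 0.10. The list of those lower in the buds labelled PTHrP-/- held 1407, of which 24 rose and 3 fell (1.92%). The list of those higher in them held 525, of which 0 rose and 5 fell, or 0.952% (medians of this pair of lists 0.06 and 0.05). These medians hang on single arrays: without K14WT replicate 2 that of the list higher in WT skin was -0.05 and that of the list higher in buds labelled PTHrP-/- was -0.09, and without K14WT replicate 1 they were 0.20 and 0.14. Without K14-PTHrP replicate 3 the list lower in those buds had a median of 0.0028, and without K14-PTHrP replicate 2 the list higher in WT buds had one of 0.04. Names were held only for probe sets on these lists. The named genes are thus a selection by differences between the 2 bud groups and between buds and skin. Of the 28 named probe sets that rose, 24 were on the list lower in buds labelled PTHrP-/-. Of the 9486 probe sets on no list, 32 rose and 9 fell, which is 0.432%. The bud and WT skin arrays behind the lists also gave part of the spread in the fit, so these shares are not independent of it. In the fit of the 2 K14 groups alone 3 of the 199 rose (1.51%), against 0.0599% called of all probe sets. Of the 1407, 4 rose and 1 fell (0.355%), and none of the 318 or 525 passed.

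Across the fits that left out 1 of the 6 arrays, 38 of the 83 calls held in all 6. Without K14WT replicate 1, 2 or 3 the number of calls was 210, 53 and 48, and without K14-PTHrP replicate 1, 2 or 3 it was 67, 175 and 71. The named genes with a call in all 6 fits were 10 that rose and 6 that fell. Of these 16, Cpxm2 and Mmp2 overlapped WT skin. The other 14, which lay beyond all control skin arrays, were Tac1, Nnat, Fxyd6, Sim2, Sostdc1, Vcan, Tgfbi and Col17a1 among the rises, and Ccn2, Ptch1, Glo1, Mme, Penk and 4631408O11Rik among the falls.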

How the data were processed

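GCRMA, MAS5 and affy are named, with no versions or order, per the submitters' processing notes. The deposited log2 table covers 22690 probe sets and is GC-RMA normalized per the file headers. The authors' lists, whose intensity values are group means on a linear scale, served for gene names and list membership alone. RefSeq (GRCm38.p6) gave a current symbol to 2323 of 2416 listed probe sets.

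Control probe sets (64) were removed. A probe set counted as above background if it exceeded its array's median on 3 or more of the 15 arrays. Group means were fitted with lmFit and eBayes of limma 3.58.1 (R 4.3.3) over all 5 groups, leaving 10 residual degrees of freedom. Tests were two-sided, with Benjamini-Hochberg adjustment over 11690 probe sets and a threshold of 0.05. A gene is shown at its brightest probe set unless an identifier is given. An exact permutation test of 3 against 3 arrays cannot go below 0.1, and the number of arrays limits the precision. Python 3.11.15, pandas 2.3.3 and matplotlib 3.10.9 made tables and figures.

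Genes and lists were chosen with earlier results of these data known. The naming rule took, among named calls without overlap, at most 20 rises and 20 falls by size, every named gene called in the K14 groups alone, at most 4 members of each list by adjusted p, and Pthlh and Pth1r. Not all of these are named in the text, and 2 called genes are not reported here.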

Additional observations from a re-analysis of the deposited data

How the results depend on the processing

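The 83 calls (60 higher, 23 lower) depended most on which arrays gave the spread. The 2 K14 groups alone called 7 (6 and 1), with 4 residual degrees of freedom against 10. The 3 skin groups called 22 (18 and 4), and array weights 1352 (778 and 574). Against the mean of both controls 249 passed (130 and 119). Leaving out 1 array gave 48 to 210 calls, with 33 to 144 higher and 14 to 66 lower. Centring each array on its median left 79 calls, 65 higher and 14 lower. No filter, a filter on the 6 K14 arrays, a second quantile normalization and an intensity trend each kept every count within 1.5 times. So did the fit without 120 probe sets in which WT skin stood apart, an alternative chosen after seeing the data (84 calls). With 1 array left out the median of the authors' list higher in WT skin ran from -0.05 to 0.20 and that of the list higher in WT buds from -0.08 to 0.04. The list higher in buds labelled PTHrP-/- ran from -0.09 to 0.14, and the list lower in them from 0.0028 to 0.11. These directions therefore did not hold, except that of the last list, which fell to near 0. Pth1r, not called, turned to -0.39 against the mean of both controls and ran from -0.17 to 0.52 with 1 array left out. The cause of these shifts was not tested. Over 896 recomputed values of 49 genes, 655 kept their direction and side of the threshold, 212 lost a call, 27 gained one and 2, both of Pth1r, changed sign.

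Same-numbered K14 arrays deviated together at r = 0.311, 0.179 and -0.141, and differently numbered ones at -0.337 to 0.262. With 3 arrays per group these values cannot settle whether replicate numbers pair the arrays. With the replicate number as a block over all 15 arrays 73 probe sets passed, 65 of them shared with the 83, and in the 2 K14 groups alone with the block 0 passed in limma (679 at an unadjusted p under 0.05).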
